A study of Homo sapiens with 3 samples.

Results

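The amino acid transporters described here are 38 genes of the solute carrier (SLC) families that move amino acids, and in a few cases peptides or related solutes, across the plasma, lysosomal or mitochondrial membrane. They were named as a list by gene symbol, and their values come from the probe sets annotated to exactly 1 gene. All 38 were measured, by 97 probe sets of the 41091 with 1 gene, among 19775 genes in all. There were 12 members with 1 probe set and 26 with more. Expression was measured in T47D, an established human line of luminal breast cancer cells with estrogen receptor α, on 3 Affymetrix HG-U133 Plus 2 arrays with 1 array per group. The groups were cells given estradiol at 1 µM, cells given ERα17p at 1 µM, and vehicle cells given 0.1% ethanol. Estradiol is the natural ligand of the receptor, and ERα17p is a synthetic peptide with a sequence from the receptor itself. All cells had first spent 4 h in medium with 10% charcoal-stripped serum, which is depleted of steroid hormones, and were collected after 3 h of treatment. For the 2 treated cultures the labels name no solvent.

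Cells take up amino acids through carriers that differ in substrate and in driving force. Sodium-coupled carriers such as those of the SLC1, SLC6 and SLC38 families can concentrate their substrates, whereas exchangers of the SLC7 family swap one amino acid for another and mostly work as heterodimers of a light chain with a heavy chain, SLC3A2 or SLC3A1. When amino acids run short or the endoplasmic reticulum is stressed, the transcription factor ATF4 accumulates and induces several carriers together with enzymes of amino acid synthesis. Proliferating breast cancer cells depend in particular on uptake of glutamine, leucine and cystine.

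The deposited values were read as log2 numbers relative to a baseline for each probe set. The log base is not stated, and every fold and every count by fold below rests on its being 2. On this reading a value of 0 is that baseline and no absolute level was kept. A level could therefore not be compared between genes, and the labelled cell type could not be checked against its defining markers: only differences between arrays are known. Over 11 measured luminal markers the median difference from vehicle was 0.07 with estradiol and 0.06 with ERα17p, and over 13 basal, stromal and blood cell markers it was 0.08 and 0.09. Of the 11 luminal markers 3 passed 1.5-fold in each comparison: TFF1, an estrogen-induced secreted protein, differed by −2.19 and −2.92, PGR, the progesterone receptor, by 1.44 ± 0.28 and 0.89 ± 0.04 (n = 2), and CDH1, an adhesion protein of epithelia, by 0.68 ± 0.72 and 0.60 ± 0.38 (n = 2). With 1 array per group there is no spread between cultures and no p-value. Where a gene has several probe sets, the SD is the spread of their differences and n their number; they share 1 RNA sample per array, so it is no error between cultures. Differences are called higher or lower at 1.5-fold, which is 0.58 on the log2 scale. In RNA from whole cultures, fewer cells with a transcript and less of it per cell cannot be told apart.

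Values spread most widely on the vehicle array. Over probe sets other than controls, the SD was 0.158 with estradiol and 0.166 with ERα17p, against 0.434 with vehicle, and over the 38 members it was 0.168 and 0.148, against 0.463. For 24 of the 38 members (63.2%) the vehicle value was the farthest of the 3 from the baseline, as it was for 60.6% of all genes. These spreads and distances depend on how the baseline was set, which is not stated. Had it been drawn from these arrays, the treated arrays, which resemble each other, would lie nearer to it by construction. They are therefore no measure of the vehicle array by itself. The controls for 18S rRNA exceeded their vehicle values by 1.87 ± 0.34 with estradiol and 1.76 ± 0.39 with ERα17p (SD, n = 3 probe sets). The 3′ less 5′ signal of ACTB differed from that on the vehicle array by −0.81 with estradiol and −0.69 with ERα17p. For GAPDH the same measure differed by −0.49 and −0.38. Each comparison with vehicle below rests on this 1 array, both share it, and the part of these array differences in the results was not tested. The comparison of ERα17p with estradiol does not use it.

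Most amino acid transporters lay within 1.5-fold of vehicle on both treated arrays, as most genes did, and 4 members were at least 2-fold lower on both: SLC3A2, SLC1A5, SLC1A4 and SLC38A7. Within 1.5-fold in both comparisons were 30 of the 38, where 81.1% of all genes were. The 4 members are also the ones at least 1.5-fold lower in both, where 6.70% of all genes were. The only member higher in both was SLC15A4, where 4.98% of all genes were. SLC43A1 and SLC25A22 were lower with estradiol alone by this threshold, and SLC7A11 with ERα17p alone, as were 1.72% and 2.06% of all genes.

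By count, 6 of 38 members (15.8%) were at least 1.5-fold lower with estradiol than with vehicle, where 8.42% of all genes were, and 1 was at least 1.5-fold higher, where 6.48% of all genes were. With ERα17p 5 members (13.2%) were lower, against 8.76% of all genes, and 1 was higher, against 6.88% of all genes. At 2-fold, 4 members were lower in each comparison, where 1.63% of all genes were lower with estradiol and 1.87% with ERα17p. No member was 2-fold higher, against 1.57% and 1.9% of all genes. The median over the 38 was −0.06 with estradiol and −0.05 with ERα17p, and over all genes it was 0.00 in both. The list as a whole was thus centred near 0, with a few members far below it.

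**Figure D1:**
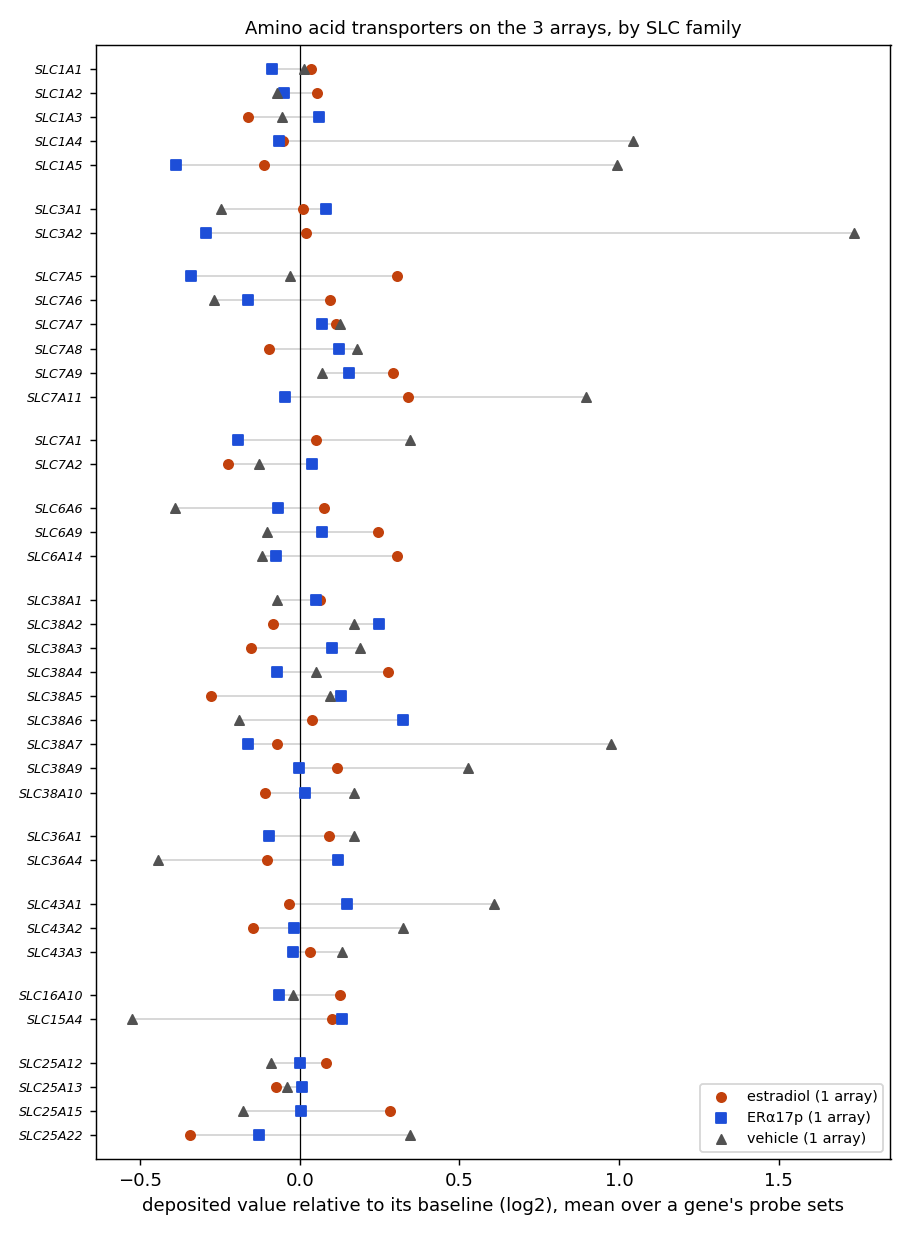
Deposited values of the 38 amino acid transporters (mean over a gene's probe sets, log2 relative to the baseline) on the estradiol, ERα17p and vehicle arrays, 1 array each, grouped by SLC family; the grey line joins the 3 values. The vehicle values of SLC3A2 (1.74), SLC1A4 (1.04), SLC1A5 (0.99) and SLC38A7 (0.97) lie far to the right of both treated values, and that of SLC15A4 (−0.52) to their left.

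SLC3A2, the heavy chain that carries most SLC7 light chains to the plasma membrane, had the largest difference of any member. Its 1 probe set stood at 0.02 with estradiol and −0.29 with ERα17p, against 1.74 with vehicle. The difference from vehicle was −1.72 with estradiol (3.29-fold lower) and −2.03 with ERα17p (4.09-fold lower). SLC3A1, the other heavy chain, which pairs with SLC7A9 in kidney and gut, stood at 0.01 and 0.08 on the treated arrays and at −0.25 on the vehicle array. Its differences were 0.26 ± 0.25 with estradiol and 0.33 ± 0.17 with ERα17p (SD, n = 3), so of the 2 heavy chains only SLC3A2 was lower. Whether SLC3A1 was above background is not known, since no absolute level was kept.

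SLC1A5, the sodium-dependent exchanger that brings glutamine into many tumour cells, stood at −0.11 with estradiol and −0.39 with ERα17p, against 0.99 with vehicle. Its differences from vehicle were −1.11 and −1.38, both from 1 probe set. SLC1A4, its close relative for alanine, serine and cysteine, stood at −0.05 with estradiol and −0.07 with ERα17p, against 1.04 with vehicle. All 5 of its probe sets lay below their vehicle value on both treated arrays, with differences of −1.09 ± 0.59 with estradiol and −1.11 ± 0.46 with ERα17p (SD, n = 5). Of these, 4 have identifiers that mark sequence shared with other transcripts (_s_at or _x_at), and the remaining one gave −0.54 and −0.72, of which the estradiol value is under 1.5-fold. The glutamate carriers of the same family, which clear this transmitter in brain, were close to the vehicle array. SLC1A1 differed by 0.02 ± 0.10 and −0.10 ± 0.04 (n = 2), SLC1A2 by 0.13 ± 0.15 and 0.02 ± 0.23 (n = 6) and SLC1A3 by −0.10 ± 0.03 and 0.12 ± 0.02 (n = 2), for estradiol and ERα17p in that order. By these differences both neutral amino acid exchangers were lower and all 3 glutamate carriers were within 1.5-fold. No absolute level was kept, so whether the glutamate carriers were above background in these cells is not known.

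Among the 6 SLC7 light chains none was 1.5-fold lower with estradiol, and the cystine importer SLC7A11 was with ERα17p. SLC7A11, which exchanges cystine for glutamate and so supplies cysteine for glutathione, stood at 0.34 with estradiol and −0.05 with ERα17p, against 0.90 with vehicle. Its differences were −0.56 ± 0.51 and −0.94 ± 0.55 (SD, n = 3). Its 3 probe sets disagreed: the lowest and highest differences were −0.88 and 0.03 with estradiol, and −1.34 and −0.32 with ERα17p. The high one in both cases is the _s_at set, and without it SLC7A11 stood at −0.85 and −1.25, past 1.5-fold in both. SLC7A5, which imports leucine and other large neutral amino acids as the partner of SLC3A2, stood at 0.30 with estradiol and −0.34 with ERα17p, with the vehicle array between them at −0.03. Its 1 probe set thus differed from vehicle by 0.34 and −0.31, in opposite directions and each under 1.5-fold, although its heavy chain was over 3-fold lower on both arrays.

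The remaining light chains were all within 1.5-fold. SLC7A6, which exchanges cationic for neutral amino acids, differed from vehicle by 0.36 ± 0.22 with estradiol and 0.10 ± 0.15 with ERα17p (n = 3). SLC7A8, a neutral amino acid exchanger with a wider range than SLC7A5, differed by −0.28 ± 0.38 and −0.06 ± 0.60 (n = 5), with single probe sets from −0.59 to 0.84 with ERα17p. For this gene the spread between probe sets was larger than either difference. SLC7A7, the y+L exchanger of gut and kidney, differed by −0.01 and −0.06, and SLC7A9, the cystine carrier of the kidney, by 0.22 and 0.08, from 1 probe set each.

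The cationic amino acid carriers import arginine and lysine without a heavy chain. SLC7A1, the widely expressed one, stood at 0.05 and −0.19 on the estradiol and ERα17p arrays, against 0.34 on the vehicle array. Its differences were −0.29 ± 0.30 and −0.54 ± 0.27 (SD, n = 5), both under 1.5-fold, and with ERα17p all 5 probe sets lay below 0. SLC7A2 differed by −0.10 ± 0.12 and 0.17 ± 0.24 (n = 3).

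The SLC38 family holds sodium-coupled carriers of glutamine and other small neutral amino acids at the plasma membrane, and members of the lysosome. SLC38A7, a lysosomal exporter of glutamine and asparagine, stood at −0.07 with estradiol and −0.16 with ERα17p, against 0.97 with vehicle. The difference was −1.05 ± 0.65 with estradiol and −1.14 ± 0.58 with ERα17p (SD, n = 4), and 3 of 4 probe sets were at least 1.5-fold lower in each comparison. SLC38A9, the arginine sensor of the lysosome that signals to the growth regulator mTORC1, had 2 probe sets that disagreed: they gave −0.90 and 0.08 with estradiol, and −1.35 and 0.29 with ERα17p. SLC38A2, which in other settings is induced by amino acid starvation, differed by −0.25 ± 0.35 and 0.08 ± 0.41 (n = 3). By gene mean it thus did not share the lower values of SLC1A5 and SLC3A2. Its probe sets, all _s_at or _x_at, disagreed: they ran from −0.65 to −0.05 with estradiol and from −0.40 to 0.34 with ERα17p. SLC38A1, a glutamine importer, differed by 0.13 ± 0.33 and 0.12 ± 0.23 (n = 4).

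The other SLC38 members were within 1.5-fold of vehicle. SLC38A10 differed by −0.28 ± 0.45 with estradiol and −0.15 ± 0.47 with ERα17p (n = 7), with single probe sets between −1.13 and 0.39. SLC38A3, SLC38A5 and SLC38A6 had 1 probe set each: they gave −0.34, −0.37 and 0.23 with estradiol and −0.09, 0.04 and 0.51 with ERα17p. SLC38A4 differed by 0.23 ± 0.05 and −0.12 ± 0.10 (n = 2). In the family as a whole, 1 of 9 was lower and none higher in each comparison, which is near the 8.42% and 8.76% of all genes that were lower.

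SLC15A4, which moves histidine and small peptides out of lysosomes, was the member with the opposite pattern. It stood at 0.10 with estradiol and 0.13 with ERα17p, against −0.52 with vehicle. The difference was 0.63 ± 0.46 with estradiol and 0.66 ± 0.23 with ERα17p (SD, n = 3), and all 3 probe sets lay above 0 in both. SLC36A4, a proton-independent carrier of proline and tryptophan, was just inside the threshold with ERα17p, at 0.56 ± 0.20 (n = 2), and gave 0.34 ± 0.06 with estradiol. SLC36A1, a proton-coupled carrier of small neutral amino acids that is also found on lysosomes, differed by −0.08 ± 0.35 and −0.27 ± 0.39 (n = 2), and SLC16A10, which carries aromatic amino acids, by 0.15 ± 0.21 and −0.05 ± 0.15 (n = 3).

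The sodium- and chloride-coupled SLC6 carriers were all above the vehicle value on both treated arrays and all within 1.5-fold. SLC6A6, the taurine carrier, differed by 0.47 ± 0.66 with estradiol and 0.32 ± 0.35 with ERα17p (n = 5). Its single probe sets ran from −0.30 to 1.16 with estradiol, where 3 of 5 were at least 1.5-fold higher. SLC6A14, which takes up nearly all neutral and cationic amino acids and is found in estrogen receptor positive breast tumours, differed by 0.42 and 0.04 from 1 probe set. SLC6A9, a glycine carrier, differed by 0.35 and 0.17.

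The SLC43 members were all below the vehicle value by gene mean, and of these SLC43A1 and SLC43A2 carry large neutral amino acids. SLC43A1 stood at −0.03 with estradiol and 0.15 with ERα17p, against 0.61 with vehicle, and its differences of −0.64 and −0.46 lay on either side of 1.5-fold. SLC43A2 differed by −0.47 ± 0.01 and −0.34 ± 0.03 (n = 2), its 2 probe sets being close to each other. SLC43A3, which carries purine bases, differed by −0.10 ± 0.27 and −0.15 ± 0.22 (n = 2).

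The mitochondrial carriers showed no common direction. SLC25A22, which imports glutamate into mitochondria, stood at −0.34 with estradiol and −0.13 with ERα17p, against 0.34 with vehicle. Its differences were −0.69 and −0.47 from 1 probe set. The aspartate-glutamate carriers SLC25A12 and SLC25A13, which serve the malate-aspartate shuttle, differed by 0.17 ± 0.62 and −0.03 ± 0.23 with estradiol and by 0.09 ± 0.54 and 0.05 ± 0.03 with ERα17p (n = 2 and n = 3). SLC25A15, the ornithine carrier of the urea cycle, differed by 0.46 ± 0.40 and 0.18 ± 0.11 (n = 2).

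**Figure D2:**
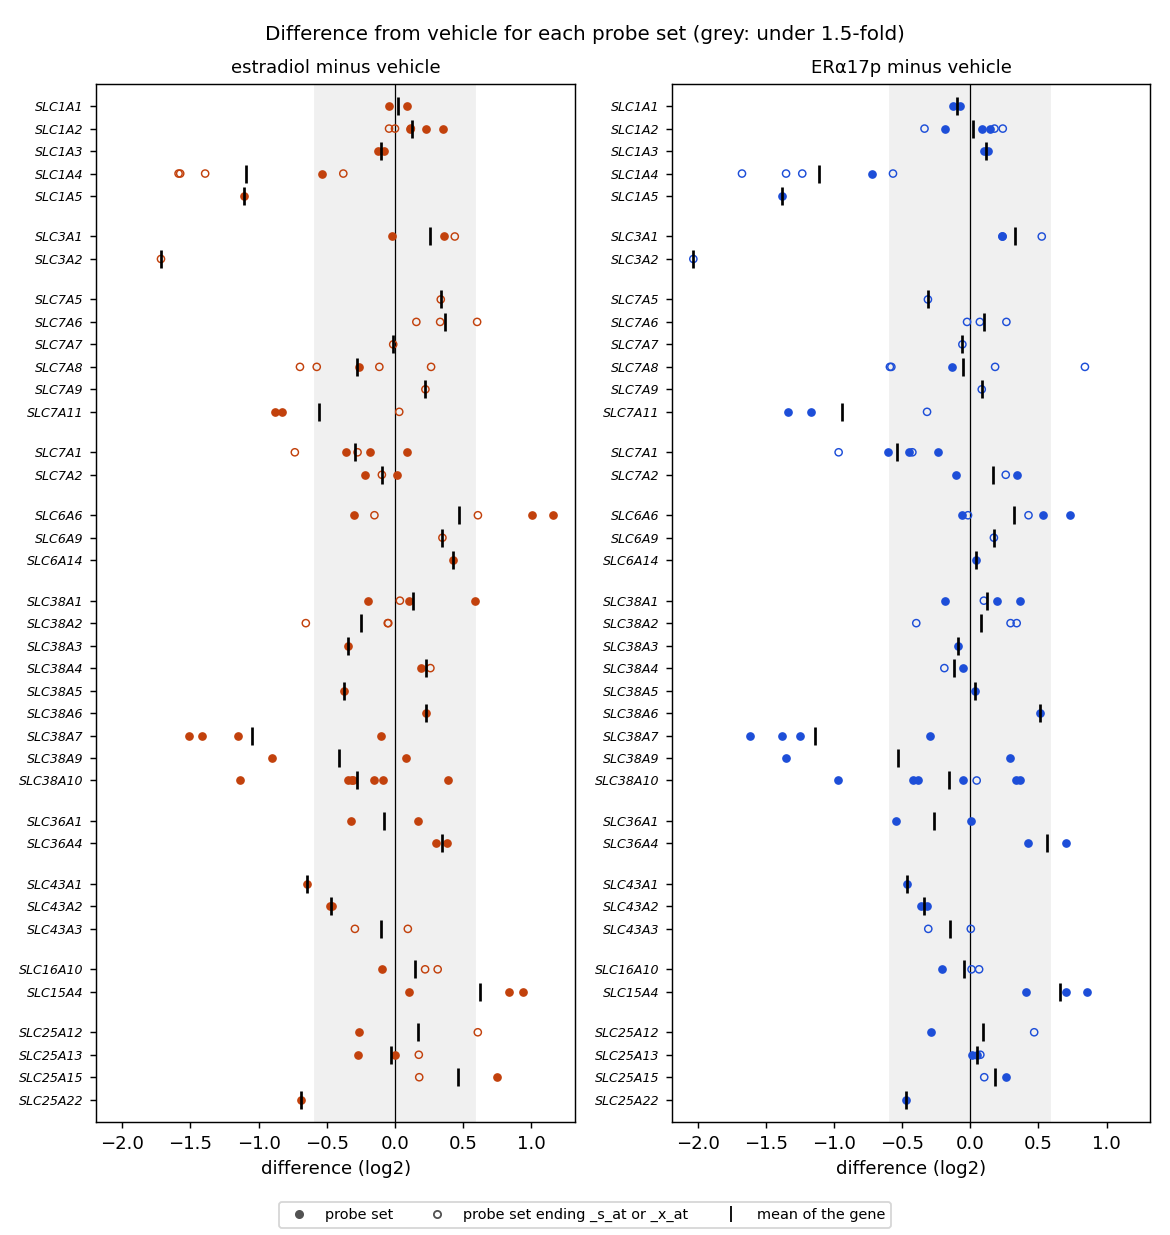
Difference from vehicle (log2) of each probe set of the 38 amino acid transporters for estradiol (left) and ERα17p (right); open circles are _s_at or _x_at probe sets, the bar is the gene's mean and grey marks differences under 1.5-fold. All probe sets of SLC1A4, SLC1A5, SLC3A2 and SLC38A7 lie below 0 in both panels, and those of SLC7A8, SLC6A6 and SLC38A10 lie on both sides of it.

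Of the 38 members, 8 are known as targets of ATF4 or of the amino acid response: SLC1A4, SLC1A5, SLC3A2, SLC6A9, SLC7A1, SLC7A5, SLC7A11 and SLC38A2. Their median difference from vehicle was −0.43 with estradiol and −0.74 with ERα17p, against 0.00 and 0.03 over the other 30. At least 1.5-fold lower were 3 of the 8 with estradiol and 4 with ERα17p, against 3 (10%) and 1 (3.33%) of the other 30. Of all genes 8.42% and 8.76% were lower. The list of known targets was drawn up with earlier results of these data known. None of the 8 was higher at that threshold, where 6.48% of all genes were with estradiol and 6.88% with ERα17p. SLC6A9 and SLC7A5 with estradiol, and SLC6A9 and SLC38A2 with ERα17p, lay above 0, so the known targets were not lower as a block.

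ATF4 binds with C/EBP proteins at a composite element with the core TGATGNAA. This core was searched on both strands of the RefSeq promoter windows (GRCh38.p14), which reach from 250 bases before to 50 bases after a gene's start, with up to several starts per gene. Windows were found for 31 of the 38 members, 55 windows in all, and 6 members held the core (19.4% of members, 10.9% of windows). Of all 27305 gene symbols with a window 4.46% held it, and of all 35116 windows 3.62% did. Members have more windows per gene, 1.77 against 1.29 for all symbols. Of the 4 members lower in both comparisons 3 held the core, and these are SLC1A4, SLC1A5 and SLC3A2, with SLC38A7 lacking it in its windows. These 4 have 2.5 windows per gene, against 1.43 for all array genes lower in both. SLC1A4, SLC1A5 and SLC3A2 are also on the list of known ATF4 or amino acid response targets. Of the 7 on that list with a window, 4 held the core. Among the members the other 3 holders were SLC7A1, SLC38A1 and SLC1A3, all within 1.5-fold of vehicle. Among the 1079 array genes with a window that were lower in both comparisons, 3.34% held the core. Of all 15384 array genes with a window 3.61% did. A match is only a run of letters and does not show binding.

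The 6 matches are shown with their surroundings so that the shared core can be compared between the 3 lower members and the 3 others, which were added after their values were seen. Each line is 30 bases from 5′ to 3′ on the strand that carries the core, which is in capitals.
SLC3A2, chr11:62881719-62881748, minus strand: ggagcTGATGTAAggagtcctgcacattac
SLC1A5, chr19:46784893-46784922, minus strand: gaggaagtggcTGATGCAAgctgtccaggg
SLC1A4, chr2:64989381-64989410, minus strand: ccggctggagaTGATGCAAacgggagccgc
SLC7A1, chr13:29595663-29595692, minus strand: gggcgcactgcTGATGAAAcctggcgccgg
SLC38A1, chr12:46266502-46266531, minus strand: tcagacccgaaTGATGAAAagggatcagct
SLC1A3, chr5:36596357-36596386, plus strand: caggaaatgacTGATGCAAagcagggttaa
Positions are counted from the start site in the direction of the gene and are those of the core's most upstream base. They are 38 in SLC3A2, −97 in SLC1A5, −7 in SLC1A4, 8 in SLC7A1, −4 in SLC38A1 and −220 in SLC1A3. In SLC3A2 and SLC1A4 the core is on the strand opposite to the gene, so there this base is the last of the capitals above. SLC1A3, SLC1A4 and SLC1A5 share the same 8 letters, while SLC1A3 differed from vehicle by −0.10 and 0.12 only.

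For the 2 members that were lower on both treated arrays and hold the core before the start site, the promoter is printed in the direction of the gene, from 250 bases before the start site up to the base before it or, in SLC1A4, up to the start site itself, with the core (in SLC1A4 its reverse complement) in capitals. The stretch of SLC1A4 has 79.3% G and C and that of SLC1A5 59.6%.
SLC1A4, chr2:64989149-64989399, plus strand: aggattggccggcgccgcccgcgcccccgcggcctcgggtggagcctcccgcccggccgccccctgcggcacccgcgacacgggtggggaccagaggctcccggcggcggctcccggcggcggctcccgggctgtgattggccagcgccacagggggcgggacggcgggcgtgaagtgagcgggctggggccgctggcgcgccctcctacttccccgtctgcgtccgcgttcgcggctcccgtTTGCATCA
SLC1A5, chr19:46784815-46785064, minus strand: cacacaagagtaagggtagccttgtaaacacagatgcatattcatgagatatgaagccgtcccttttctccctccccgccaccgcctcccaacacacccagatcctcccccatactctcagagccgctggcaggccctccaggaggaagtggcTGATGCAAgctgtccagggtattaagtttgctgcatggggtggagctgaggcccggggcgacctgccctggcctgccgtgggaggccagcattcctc
The full estrogen response element, GGTCA and TGACC with any 3 bases between, was in none of the 55 member windows and in 20 of all 35116 (0.057%). At so low a share no match would be likely in 55 windows, so its absence there says nothing about the members.

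The 38 members were set beside other genes of amino acid handling, from lists drawn up by function, with earlier results of these data known. Among other amino acid and peptide transporters 34 of 38 were measured. With estradiol 2 (5.88%) were at least 1.5-fold lower and none higher, where 8.42% of all genes were lower and 6.48% higher. With ERα17p 3 (8.82%) were lower and none higher, against 8.76% and 6.88% of all genes. SLC66A1, which exports cationic amino acids from lysosomes, differed by −0.72 ± 0.50 and −0.77 ± 0.54 (n = 3), and SLC25A18, a second mitochondrial glutamate carrier, by −0.71 and −0.69. Their medians were −0.09 and −0.05, close to those of the members. Of 306 further SLC genes with other substrates, 9.8% were lower and 8.17% higher with estradiol, and 10.5% and 8.17% with ERα17p.

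Several enzymes of amino acid synthesis and conversion were also lower on both treated arrays, with medians over the list of −0.18 with estradiol and −0.20 with ERα17p. Of 21 measured, 6 were lower and 1 higher with estradiol, where 8.42% of all genes were lower and 6.48% higher. With ERα17p 7 were lower and 1 higher, against 8.76% and 6.88% of all genes. The list was mixed, with 6 of the 21 above 0 with estradiol and 7 with ERα17p. Its highest differences were 0.79 with estradiol and 0.86 with ERα17p. The enzymes named next were picked by size of difference and all lie below 0, so they do not stand for the list. PHGDH, the first enzyme of serine synthesis, differed by −0.95 and −1.13, ASNS, asparagine synthetase, by −0.78 ± 0.66 and −0.96 ± 0.63 (n = 2), and PYCR3, an enzyme of proline synthesis, by −0.76 and −1.24. Of 32 measured genes of amino acid sensing and mTORC1 control, 7 (21.9%) were lower and none higher with estradiol. With ERα17p 9 (28.1%) were lower and 1 higher, beside the same shares of all genes. Above 0 lay 13 of the 32 with estradiol and 12 with ERα17p. ATF4 itself differed by −1.15 and −1.22 from 1 probe set, and SESN2, a leucine sensor, by −2.37 ± 0.46 and −2.32 ± 0.23 (n = 2). ATF4 stood at −0.12 and −0.19 on the estradiol and ERα17p arrays, against 1.03 on the vehicle array, so, as for SLC3A2, SLC1A5 and SLC1A4, the vehicle value was the high one.

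**Figure D3:**
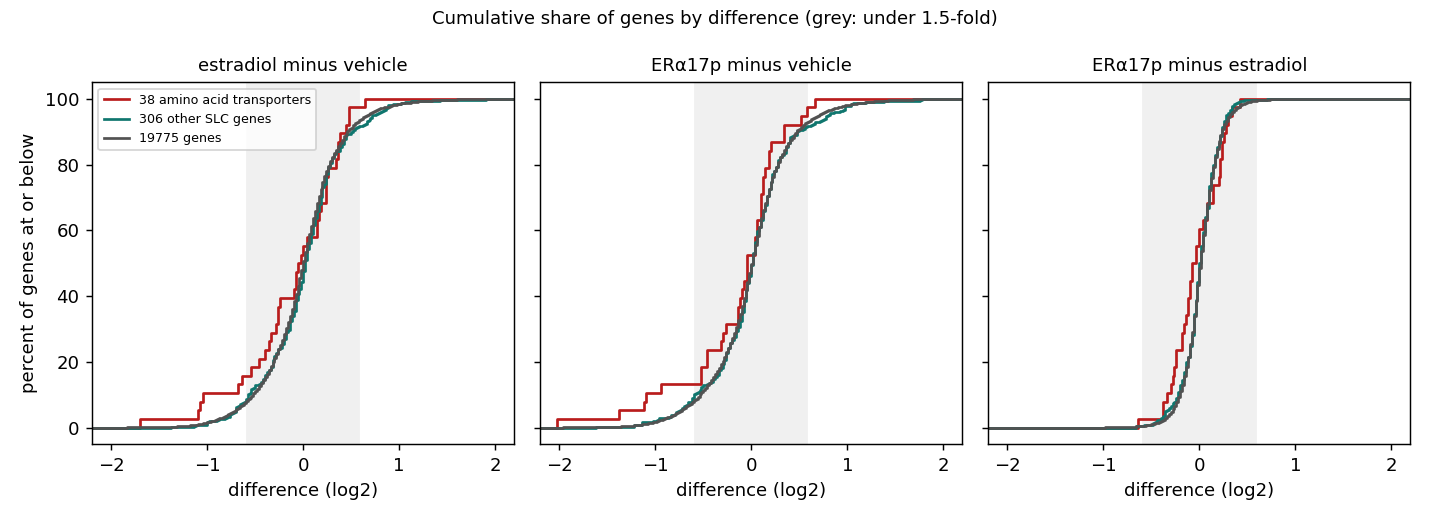
Percent of genes at or below each difference (log2) for the 38 amino acid transporters, 306 other SLC genes and all 19775 genes, in the comparisons of estradiol with vehicle, ERα17p with vehicle and ERα17p with estradiol. At −1, 4 of the 38 members lie at or below in each comparison with vehicle, against 1.63% of all genes with estradiol and 1.87% with ERα17p, and no member lies beyond −1 or 1 between the treated arrays.

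Between the 2 treated arrays, which does not involve the vehicle array, 37 of the 38 amino acid transporters lay within 1.5-fold, as did 19552 of all 19775 genes. The members still spread more widely than genes in general, with an interquartile range of 0.36, against 0.22 over all genes. At least 1.5-fold lower with ERα17p than with estradiol was 1 of 38, SLC7A5 at −0.65, where 0.607% of all genes were lower, and none was higher, where 0.521% of all genes were. No member reached 2-fold, against 0.086% of all genes lower and 0.0607% higher. The median over the members was −0.07, against 0.01 over all genes, with 15 of 38 (39.5%) above 0, against 51.6% of all genes.

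SLC7A5, at −0.34 on the ERα17p array against 0.30 on the estradiol array, was followed by SLC7A11 at −0.38 ± 0.11 (n = 3) and SLC6A14 at −0.38 (1 probe set). SLC38A4 stood at −0.35 ± 0.14 (n = 2), SLC3A2 at −0.31, SLC1A5 at −0.27, SLC7A6 at −0.26 ± 0.08 (n = 3) and SLC7A1 at −0.24 ± 0.06 (n = 5). The SLC7A11, SLC7A6 and SLC7A1 probe sets all lay below 0. At the other end lay SLC38 members: SLC38A5 stood at 0.41, SLC38A2 at 0.33 ± 0.07 (n = 3) and SLC38A6 at 0.28. All of these are under 1.5-fold. SLC1A4 at −0.01 ± 0.20 (n = 5), SLC38A7 at −0.09 ± 0.09 (n = 4) and SLC15A4 at 0.03 ± 0.24 (n = 3) were nearly equal on both treated arrays. Of the 8 known ATF4 targets only SLC7A5 was 1.5-fold lower with ERα17p than with estradiol, where 0.607% of all genes were. The median of the 8 was −0.26, against −0.03 over the other 30. Without a second culture of either treatment these differences have no error between cultures, and no order among them can be tested.

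**Figure D4:**
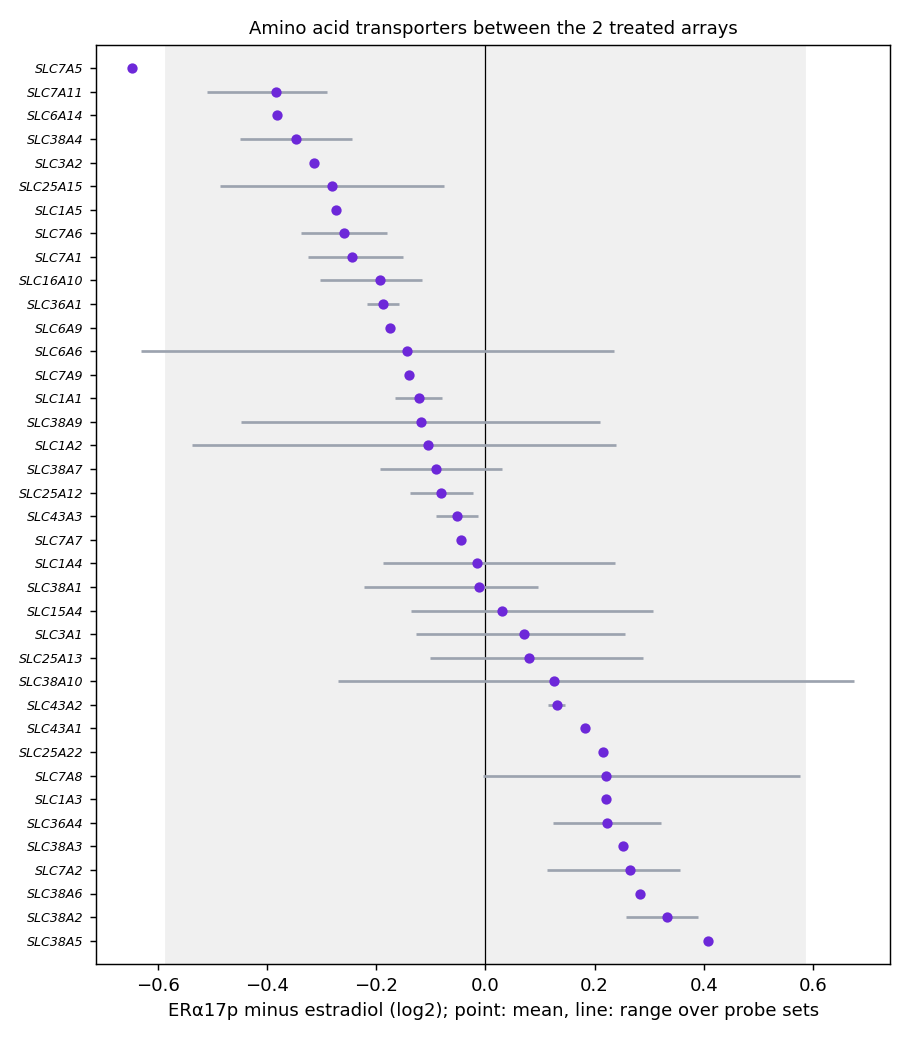
ERα17p minus estradiol (log2) for the 38 amino acid transporters, ranked; points are means over probe sets, lines run between the lowest and highest probe set, and grey marks differences under 1.5-fold. Only SLC7A5 (−0.65, 1 probe set) lies outside the grey area, and SLC38A5 (0.41) is the highest.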

How the data were processed

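Total RNA of T47D cells was measured, per the labels' protocols, on 3 Affymetrix arrays of type HG-U133 Plus 2, 1 each for estradiol, ERα17p and vehicle. RMA is the tool named for them per the submitters' processing notes, without a version, and the deposited values were taken as log2, a base that no source used here states. They lie around 0, so a baseline of unstated origin had been subtracted before they were deposited. The 54675 probe sets include 62 controls, 1801 with several genes (0 of them with a member) and 11721 without a gene name in the platform annotation, all left out. The symbols of all 97 member probe sets matched the current gene record. A gene's value is the mean over its probe sets. Each treated array was set against the vehicle array and ERα17p against estradiol, with differences counted by size (1.5-fold, or 2-fold) with no test. Alternatives were 2-fold, the median of probe sets, no _s_at or _x_at sets, median-centred differences, all probe sets past the threshold, and probe sets in place of genes. All members could be named, and of every other list up to 4 genes with the largest absolute difference per comparison. The members and lists were chosen with earlier results of these data known. The number of arrays limits the precision. The gene computation was tested on simulated data. Python 3.11.15, numpy 2.4.6, pandas 2.3.3 and matplotlib 3.10.9 were used.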

Additional observations from a re-analysis of the deposited data

Results flagged for a closer look

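SLC7A5, the leucine carrier that pairs with SLC3A2, was the only amino acid transporter that differed from vehicle in opposite directions on the treated arrays with a gap of at least 1.5-fold between them. It stood at −0.34 on the ERα17p array and 0.30 on the estradiol array, a difference of −0.65, and differed from vehicle by −0.31 with ERα17p and 0.34 with estradiol. The value rests on 1 _s_at probe set and 1 array per treatment, and the difference was not tested. Opposite signs alone were found for 9 of the 38 members and for 18.8% of all genes.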

How the results depend on the processing

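No paired analysis was possible because each group had 1 array. For the same reason no array could be left out, and without the vehicle array only ERα17p minus estradiol remains. Centring on the median of all genes changed no count, and the 3 medians over the members stayed negative under every alternative run. The counts of higher members were small and moved. With estradiol the 1 higher member became 0 at 2-fold or where all probe sets had to pass, 2 with the median of probe sets (6.35% of all genes), and 3 of 30 members without _s_at and _x_at sets (5.99% of all genes). With ERα17p the 1 higher member became 0 at 2-fold and where all probe sets had to pass. That last rule left 3.31% of all genes higher with estradiol and 3.81% with ERα17p. With estradiol the 6 lower members became 4 by that rule (6.68% of all genes), without SLC1A4 and SLC38A7. They became 7 with the median of probe sets (8.63% of all genes), and 5 of 30 without _s_at and _x_at sets (7.88% of all genes). The 5 lower members with ERα17p became 2 where all probe sets had to pass (6.76% of all genes). Single probe sets of SLC1A4, SLC7A11 and SLC38A7 missed the threshold there. For ERα17p minus estradiol the 1 lower member became 0 at 2-fold and without _s_at and _x_at sets (0.743% of all genes), which drops SLC7A5. Those sets are the only ones of 8 members, SLC3A2 among them. Counted over 97 probe sets, 9 were higher and 17 lower with estradiol, 5 higher and 16 lower with ERα17p, and 1 higher and 2 lower between the treated arrays. The share over all probe sets was not computed, so whether these counts are unusual is not known. No difference of a member past 1.5-fold changed sign. Signal over background is unknown, since no absolute level was kept.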
